A study of Mus musculus with 14 samples.

Results

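The apelin receptor gene Aplnr and the genes of its ligands, Apln and Apela, were followed through mouse embryonic stem cells in 5 culture media and a short time course. These 3 genes were chosen by the measured level of Aplnr, which was higher in medium with bFGF and activin, out of 37991 gene identifiers in the files; that contrast is therefore described for them without a test. In experiment B, C57BL/6 dual reporter cells (mCherry for mir-290, eGFP for mir-302) were plated sparsely and grown for 5 days, with 2 libraries per medium. F/A was serum-free N2B27 with bFGF at 12 ng/ml together with activin A, whose dose was 20 ng/ml; L-Pro/LIF added L-proline (dose not given), 2i/LIF added the MEK and GSK3 inhibitors, VitC/LIF added vitamin C at 500 µM, and FBS/LIF held serum with leukemia inhibitory factor. Experiment A held 4 single libraries of C57BL/6 cells of this kind, positive for both reporters: day 0 (titled untreated, kept per the protocol in serum, LIF and vitamin C at 100 µM), day 3 and day 5 in F/A (activin A at 20 ng/ml, bFGF dose not stated), and day 5 in serum, LIF and L-proline at 1 mM. The labels do not tell whether the libraries of each medium stem from separate cultures, so p-values measure only the spread between these libraries, which may be technical.

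Aplnr encodes a G protein-coupled receptor that signals through inhibitory G proteins and is taken up with arrestins. The files list it as ENSMUSG00000044338, and its ligand genes Apln and Apela as ENSMUSG00000037010 and ENSMUSG00000079042; they lie on chromosomes 2, X and 8 in GENCODE vM21. The ligands are secreted peptides cut from longer precursors: apelin, from Apln, and Elabela (also called Toddler), from Apela. In the gastrulating mouse embryo Aplnr is a gene of nascent mesoderm, and later of blood vessels and heart, while in zebrafish the Apela peptide guides the movement of mesendoderm cells. In mouse embryonic stem cells the Apela transcript has also been described as an RNA that binds the protein hnRNPL and alters p53 activity.

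Experiment B libraries held 17778399 to 26354444 mapped fragments, except F/A replicate 1 with 6937945, and experiment A libraries held 33162689 to 39711061 counts. Levels are given as FPKM (fragments scaled by effective length and by the mapped fragments of the library), which allows genes to be set beside each other. Fold changes and tests use estimated fragment counts and TMM-scaled counts relative to library size (CPM). Of the 9 naive pluripotency genes checked, 9 were lower in F/A and 9 in L-Pro/LIF than in FBS/LIF, and 8 were higher in 2i/LIF, against 22%, 10.3% and 12.5% of all 16033 genes tested called in those directions (edgeR's quasi-likelihood test, Benjamini-Hochberg adjusted p under 0.05).

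The receptor transcript was abundant in F/A and had no fragment in 2i/LIF, VitC/LIF or FBS/LIF. Aplnr stood at 11.6 and 9.08 FPKM in the F/A libraries, at 0.0634 and 0.0399 FPKM in L-Pro/LIF, and at 0 in the 6 libraries of the other media. The F/A libraries held 266 and 562 fragments and the L-Pro/LIF libraries 5 and 4. Summed over the group, 828 fragments in F/A against 0 in FBS/LIF gave a ratio of 425, with 3 fragments over the FBS/LIF group as the floor. Ratios to this floor, here and below, carry no counting error on the other count and are not lower bounds. On TMM-scaled library totals the floor of 3 fragments stands at 0.0698 CPM in FBS/LIF, 0.0817 CPM in 2i/LIF and 0.0847 CPM in VitC/LIF. Of all genes tested, 46.4% were called in F/A over FBS/LIF in either direction and 24.4% as higher; Aplnr passed the filter on low counts only through the F/A libraries. Intervals cover counting error only. In bulk RNA, fewer cells that hold a transcript and less of it per cell cannot be told apart.

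**Figure D1:**
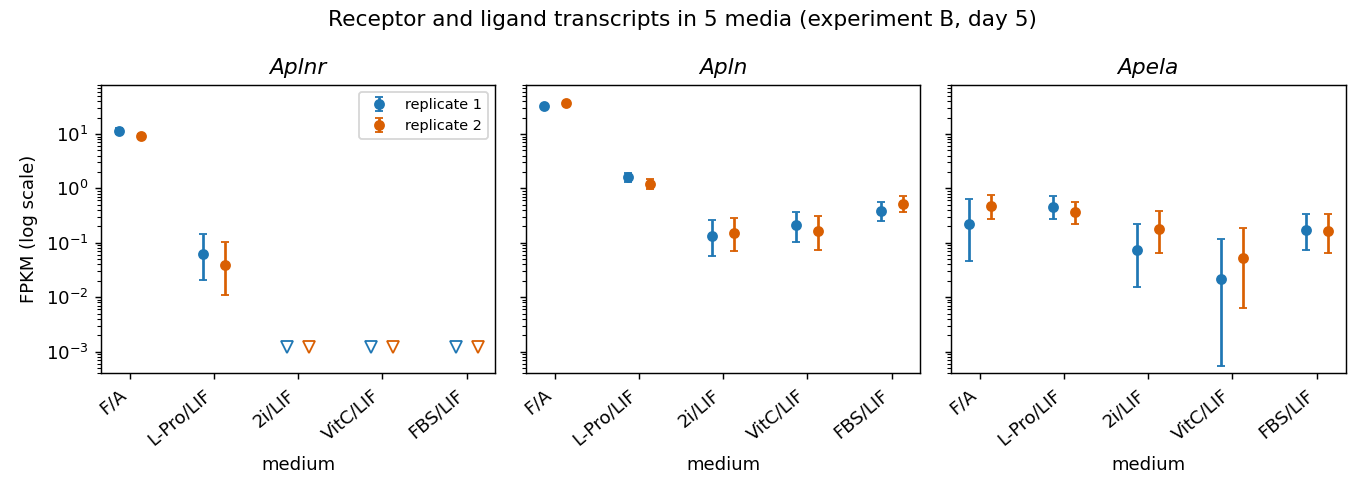
FPKM (log axis) of Aplnr, Apln and Apela in each library of the 5 media at day 5; points are libraries, bars are exact 95% counting intervals, and open triangles at a fixed height mark libraries with 0 fragments. Aplnr had fragments in F/A and L-Pro/LIF alone, Apln was highest in F/A, and Apela stayed under 0.5 FPKM in every library.

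Apln was the abundant ligand. Its reference coding sequence is shown because the peptide that binds the receptor is its last stretch: capitals mark the 13 codons of apelin-13 at the end of the 77-codon reading frame (GENCODE vM21, GRCm38, chrX:48028302-48034505, minus strand, spliced over 2 coding exons, stop codon left out).
Apln coding sequence: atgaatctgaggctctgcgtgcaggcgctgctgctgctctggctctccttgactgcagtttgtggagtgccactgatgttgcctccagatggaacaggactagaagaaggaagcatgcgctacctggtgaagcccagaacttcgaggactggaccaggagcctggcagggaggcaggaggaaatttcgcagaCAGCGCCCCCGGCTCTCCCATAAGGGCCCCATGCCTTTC
Apln stood at 32.2 and 37.3 FPKM in F/A, at 1.59 and 1.20 FPKM in L-Pro/LIF, at 0.131 and 0.154 FPKM in 2i/LIF, at 0.208 and 0.162 FPKM in VitC/LIF and at 0.385 and 0.527 FPKM in FBS/LIF. The media therefore ranked F/A, L-Pro/LIF, FBS/LIF, VitC/LIF and 2i/LIF, with no overlap between neighbours. The share of all genes without such overlap was not counted, here or for Apela below, so the lack of overlap is a description only. Counting intervals of VitC/LIF and 2i/LIF libraries overlapped, at 11 and 9 fragments in VitC/LIF and 8 and 9 in 2i/LIF, and these media were not tested against each other. In F/A over FBS/LIF, 2672 against 59 fragments gave a ratio of 69.8 (95% counting interval 53.9 to 91.9).

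Apela was under 0.5 FPKM in every library, and lower than Apln in each but 2i/LIF replicate 2. Its coding sequence follows in the same form, with capitals on the last 32 of 54 codons, those of the longest mature Elabela peptide (GENCODE vM21, GRCm38, chr8:65035669-65036965, minus strand, 2 coding exons).
Apela coding sequence: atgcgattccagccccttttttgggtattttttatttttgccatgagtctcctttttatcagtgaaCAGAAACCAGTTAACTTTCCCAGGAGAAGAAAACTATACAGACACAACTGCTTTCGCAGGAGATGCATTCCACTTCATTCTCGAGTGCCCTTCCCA
Apela stood at 0.220 and 0.469 FPKM in F/A, at 0.455 and 0.367 FPKM in L-Pro/LIF, at 0.0748 and 0.176 FPKM in 2i/LIF, at 0.0215 and 0.0515 FPKM in VitC/LIF and at 0.174 and 0.164 FPKM in FBS/LIF. The L-Pro/LIF libraries were above all FBS/LIF, 2i/LIF and VitC/LIF libraries, while F/A overlapped L-Pro/LIF and 2i/LIF overlapped FBS/LIF. These levels rest on 1 to 19 fragments per library. In F/A over FBS/LIF, 20 against 15 fragments gave a ratio of 2.05 (1.00 to 4.31), and the fitted log2 fold change of 0.90 became 0.0284 without F/A replicate 2. Another gene of GENCODE vM21 overlaps Apela on the same strand and has no identifier in the files, so fragments from it could be counted as Apela.

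The balance of the ligands differed between media. On the FPKM scale Apln was 147 and 79.6 times Apela in the F/A libraries, 3.49 and 3.27 times in L-Pro/LIF, 1.75 and 0.872 times in 2i/LIF, 9.71 and 3.15 times in VitC/LIF and 2.21 and 3.22 times in FBS/LIF. In this ratio the F/A libraries were above all others and the 2i/LIF libraries below all others. Apln exceeded the receptor transcript 2.78 and 4.11 times in F/A, and 25.1 and 30.2 times in L-Pro/LIF, where the receptor had 9 fragments in all.

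L-Pro/LIF was set against FBS/LIF to see whether L-proline alone goes with other levels of the receptor and ligands. Apln rose in L-Pro/LIF over FBS/LIF by 1.58 ± 0.21 on the log2 scale (SE; edgeR adjusted p = 0.00107), with 4.13 ± 0.645 CPM in L-Pro/LIF and 1.37 ± 0.310 CPM in FBS/LIF (SD, n = 2 each). Of all genes tested, 24% were called in this comparison and 13.7% as higher. Aplnr had 5 and 4 fragments in L-Pro/LIF against 0 and 0 in FBS/LIF, a ratio of 2.74 with the floor of 3 fragments for FBS/LIF. No test is given for it, since Aplnr passed the filter on low counts only through F/A. Apela, at 19 and 19 fragments in L-Pro/LIF against 8 and 7 in FBS/LIF, had a log2 fold change of 1.20 ± 0.55 that did not pass the test (edgeR adjusted p = 0.157).

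In 2i/LIF over FBS/LIF, Apln fell by 1.55 ± 0.28 on the log2 scale (SE; edgeR adjusted p = 0.00356), with 0.464 ± 0.0570 CPM in 2i/LIF and 1.37 ± 0.310 CPM in FBS/LIF (SD, n = 2 each). This comparison called 30.4% of all genes, 17.9% as lower. Apela did not pass the test, at 3 and 6 fragments in 2i/LIF against 8 and 7 in FBS/LIF (log2 fold change -0.49 ± 0.63, edgeR adjusted p = 0.615). Aplnr had no fragment in either medium.

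VitC/LIF over FBS/LIF had the fewest calls of the 5 comparisons, 0.674% of all genes. Apln had 11 and 9 fragments in VitC/LIF against 25 and 34 in FBS/LIF (log2 fold change -1.27 ± 0.27, edgeR adjusted p = 0.0905), lower in both libraries but short of the threshold; without the filter on low counts the adjusted p was 0.0425. Apela had 1 and 2 fragments in VitC/LIF against 8 and 7 in FBS/LIF, a ratio of 0.243 (95% counting interval 0.0450 to 0.858), and did not pass (edgeR adjusted p = 0.351). Aplnr had no fragment in either medium.

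Set directly against vitamin C, the addition named beside it in the title of the series, L-proline went with more of both ligands. Apln rose in L-Pro/LIF over VitC/LIF by 2.85 ± 0.25 on the log2 scale (SE; edgeR adjusted p = 7.89e-05), at 100 and 93 fragments in L-Pro/LIF against 11 and 9 in VitC/LIF. Apela rose as well, with 38 against 3 fragments over the groups, a ratio of 9.52 (95% counting interval 3.02 to 48.2; edgeR adjusted p = 0.00896). The Apela call was lost without VitC/LIF replicate 1 (edgeR adjusted p = 0.0896) or L-Pro/LIF replicate 1 (0.0541). Aplnr had 9 against 0 fragments, a ratio of 2.25 with the floor of 3 fragments for VitC/LIF, also given without a test. In this comparison 29.8% of all genes were called, 16.8% as higher. The comparisons with FBS/LIF share its libraries and those with L-Pro/LIF share that group, so their values are not independent of each other.

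**Figure D2:**
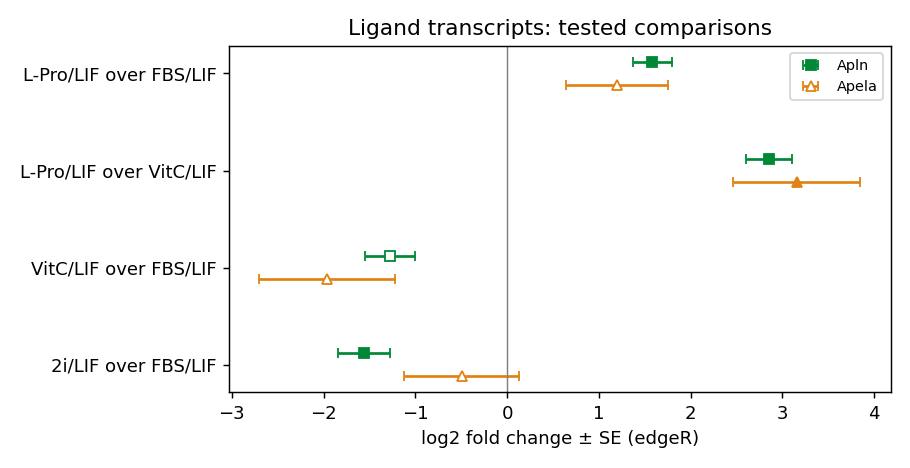
Log2 fold changes (edgeR, bars ± SE) of Apln (squares) and Apela (triangles) in the 4 comparisons in which they were tested, first-named medium over the second; filled points passed the adjusted p of 0.05. Apln passed in L-Pro/LIF over FBS/LIF, L-Pro/LIF over VitC/LIF and 2i/LIF over FBS/LIF, and Apela in L-Pro/LIF over VitC/LIF alone.

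The single libraries of experiment A placed the receptor late in F/A. Aplnr had 0 counts at day 0, 8 at day 3 and 1504 at day 5, which is 0, 0.225 and 45.4 CPM of the library total. Between day 5 and day 3 in F/A the ratio was 202 (95% counting interval 102 to 469). This ranked 3 of 15086 genes with at least 20 counts in either library, of which 3.43% were at least 4-fold higher. Because Aplnr was chosen for its higher level in F/A, its ratio and rank here are a description only. Apln had 20 counts at day 0, 214 at day 3 and 6207 at day 5, or 0.586, 6.01 and 187 CPM. Its ratio of day 3 to day 0 was 10.3 (6.48 to 17.1), when Aplnr had 8 counts, and its ratio of day 5 to day 3 was 31.2 (27.2 to 35.9). Apela had 4, 15 and 48 counts, with a day 5 to day 3 ratio of 3.44 (1.89 to 6.61). With 1 library per time there is no replicate check, and the day 0 medium differed from F/A in serum, LIF and vitamin C as well as in time.

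After 5 days in L-proline in experiment A all 3 transcripts had more counts than at day 0 and fewer than at day 5 in F/A. Aplnr had 8 counts in the L-proline library against 0 at day 0, a ratio of 2.29 with the floor of 3 counts for day 0. Apln had 104 counts against 20 at day 0, a ratio of 4.47 (95% counting interval 2.75 to 7.62), and Apela had 17 against 4, a ratio of 3.65 (1.19 to 14.9). Of 15328 genes with at least 20 counts in either library, 11.5% were at least 4-fold higher. Set beside the F/A day 5 library, the L-proline library had 8 against 1504 counts of Aplnr, 104 against 6207 of Apln and 17 against 48 of Apela. The authors' deposited table of normalized counts lists Aplnr at 0, 8 and 1562, Apln at 22, 221 and 6448 and Apela at 4, 15 and 50 in the day 0 library and after 3 and 5 days of F/A.

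**Figure D3:**
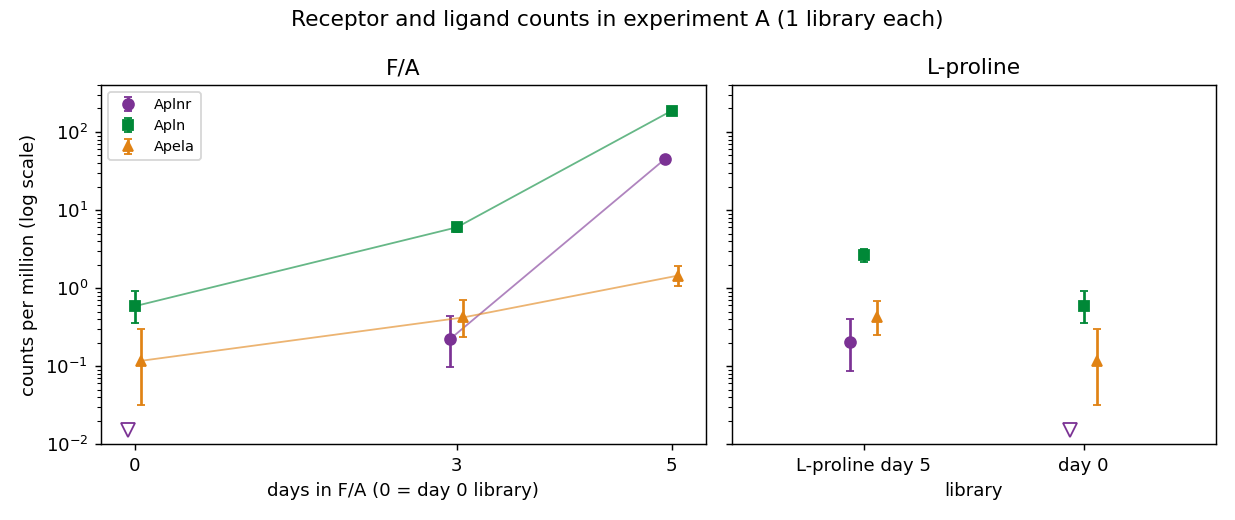
CPM (log axis) of Aplnr, Apln and Apela in experiment A, with the F/A times on the left and the L-proline day 5 and day 0 libraries on the right; each point is 1 library, bars are exact 95% counting intervals, and an open triangle at a fixed height marks 0 counts. Aplnr had 8 counts at day 3 of F/A and 1504 at day 5.

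Markers of nascent mesoderm stood high in the same libraries as the receptor. Of the 15 genes on this list 13 were tested, but Mesp1, Lhx1, Msgn1 and Snai1 passed the filter on low counts only through F/A, so they are left out of the count in F/A. The 9 that also passed it in the 8 libraries without F/A (a restriction chosen after seeing the data) were all higher in F/A than in FBS/LIF, beside 23.6% of the 15538 genes tested that also passed so. T (brachyury), a mesoderm transcription factor, averaged 327 ± 26.2 CPM in F/A and 0.722 ± 0.106 CPM in FBS/LIF (SD, n = 2 each; log2 fold change 8.81 ± 0.20 SE, edgeR adjusted p = 8.18e-08). Mixl1 and Fgf8 rose there by 7.40 and 7.19 on the log2 scale. Hand1 and Mesp2 were under the filter. The summed level of the list, in CPM of the library total without TMM scaling, was 644 and 610 CPM in F/A, 99.3 and 112 CPM in L-Pro/LIF, 22.4 and 22.8 CPM in 2i/LIF, 6.34 and 8.46 CPM in VitC/LIF and 8.51 and 10.8 CPM in FBS/LIF. T alone made up 355 and 377 CPM of the sum in F/A and 40.5 and 45.3 CPM in L-Pro/LIF. In L-Pro/LIF, 7 of the 13 were higher than in FBS/LIF, beside 13.7% of all genes, and 6 did not pass. Among the 6 was Lhx1, at 0 and 4 fragments in L-Pro/LIF against 0 and 4 in FBS/LIF. The 13 hold the 4 genes left out of the count in F/A, of which Msgn1 had no fragment in L-Pro/LIF or FBS/LIF. In experiment A the sum was 10.7 CPM at day 0, 76.2 at F/A day 3 and 1172 at F/A day 5, and 146 after 5 days of L-proline. T had 24, 737 and 28186 counts over the F/A times and made up 850 CPM of the sum at F/A day 5. The part of such cells in the levels of the receptor and ligands was not tested.

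Other cell types that use the receptor or lie near it were checked by their markers. Of 13 endothelial markers, 9 were tested, and in F/A over FBS/LIF 1 was higher (Kdr, a receptor also found in early mesoderm, log2 fold change 2.84 ± 0.54, edgeR adjusted p = 0.0034) and 5 were lower, among them Tek, Etv2 and Sox18, beside 24.4% of all genes called higher and 22% lower. The endothelial sum, on the library-total scale like all such sums here, was 34.7 and 28.0 CPM in F/A and 48.5 and 40.6 CPM in FBS/LIF. It was also below FBS/LIF in 2i/LIF (35.3 and 29.0 CPM) and L-Pro/LIF (38.8 and 36.3 CPM), and stood at 45.1 and 40.8 CPM in VitC/LIF. Tie1, Emcn and Cdh5 had few fragments in both F/A and FBS/LIF. Tie1 had 0 and 0 in F/A against 3 and 3 in FBS/LIF, Emcn 0 and 1 against 0 and 0, and Cdh5 2 and 1 against 1 and 2. Others on the list had more, such as Egfl7 with 98 and 290 fragments in F/A and 491 and 402 in FBS/LIF. Of 11 tested definitive endoderm markers, Cer1 and Foxa1 passed the filter only through F/A; of the other 9, 5 were higher in F/A, beside 23.6%, and 1, Trh, was lower. Cer1, a secreted Nodal and BMP inhibitor, had 1 and 2 fragments in L-Pro/LIF and 0 in 2i/LIF, VitC/LIF and FBS/LIF. The sum of this list was 135 and 107 CPM in F/A and 295 and 290 CPM in FBS/LIF, of which Trh alone made up 35.6 and 38.0 CPM in F/A and 283 and 265 CPM in FBS/LIF.

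Lists for the primed epiblast and the primitive endoderm were read in the same way. Of 9 primed epiblast genes, 6 were higher and 1 lower in F/A and 8 higher in L-Pro/LIF, over FBS/LIF; Fgf5, a growth factor of the epiblast, rose by 5.10 in F/A and 4.15 in L-Pro/LIF on the log2 scale. Their sum was 1604 and 1871 CPM in F/A, 2620 and 2376 CPM in L-Pro/LIF and 1721 and 1647 CPM in FBS/LIF. Tdgf1 alone made up 346 and 523 CPM of it in F/A, 1245 and 1100 CPM in L-Pro/LIF and 942 and 854 CPM in FBS/LIF. Of 11 primitive endoderm genes, Gata4, Gata6, Sox7 and Sox17 are also on the definitive endoderm list, and Pdgfra on the nascent mesoderm list. Among these 11, 7 were higher and 1 lower in F/A and 2 higher and 1 lower in L-Pro/LIF. Their sum was 647 and 530 CPM in F/A, 386 and 413 CPM in L-Pro/LIF and 244 and 357 CPM in FBS/LIF. Fibroblast markers were higher for 5 of 8 tested genes in F/A and 6 of 8 in L-Pro/LIF, with sums of 46.8 and 33.4 CPM in F/A, 42.5 and 44.6 CPM in L-Pro/LIF and 23.3 and 23.9 CPM in FBS/LIF. Of all genes tested, 24.4% were higher and 22% lower in F/A, and 13.7% higher and 10.3% lower in L-Pro/LIF. The part of such cells in the levels of Aplnr, Apln and Apela was not tested.

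**Figure D4:**
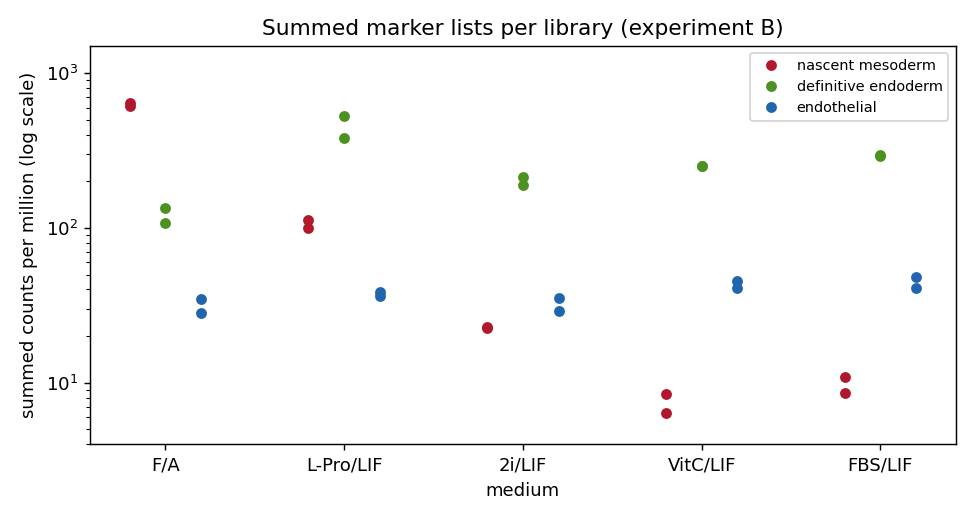
Summed CPM of the library total (log axis) of the nascent mesoderm, definitive endoderm and endothelial marker lists in each library of experiment B; points are libraries. The mesoderm sum was 644 and 610 CPM in F/A, of which T alone made up 355 and 377 CPM, and 8.51 and 10.8 CPM in FBS/LIF. The endothelial sum was below FBS/LIF in both F/A libraries.

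Around the receptor, genes from the lists set up for it are called pathway genes here. They include related receptors, Apela RNA partners and p53 targets, which were not listed for signalling by the receptor. In all, 57 were in the files and 50 were tested. In F/A over FBS/LIF 26 were higher and 6 lower, and in L-Pro/LIF over FBS/LIF 16 were higher and 4 lower, beside 46.4% and 24% of all genes called. Those shares were 24.4% higher and 22% lower in F/A, and 13.7% higher and 10.3% lower in L-Pro/LIF. Of the 26 higher in F/A, 8 were p53 targets, as were 6 of the 16 in L-Pro/LIF. Pcsk5 passed the filter on low counts only through F/A. Without it, 25 of 49 were higher and 6 lower in F/A, beside 23.6% and 22.7% of the genes that also passed without F/A. In 2i/LIF over FBS/LIF 10 were higher and 15 lower, beside 30.4% called, 12.5% higher and 17.9% lower. In VitC/LIF over FBS/LIF none was higher and 1 lower, Gnai1, beside 0.674%, and in L-Pro/LIF over VitC/LIF 18 were higher and 4 lower, beside 29.8%. The counts by list that follow are to be read against these shares. Whether a list differs from other genes was not tested. The called totals of 32 in F/A, 20 in L-Pro/LIF, 25 in 2i/LIF and 1 in VitC/LIF became 19 when FBS/LIF replicate 1 was left out, 12 when L-Pro/LIF replicate 1 was left out, 16 without either 2i/LIF library, and 0 when any 1 of the 4 VitC/LIF and FBS/LIF libraries was left out.

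Of the 7 proprotein convertases, the enzymes that cut peptide precursors, Pcsk5 passed the filter on low counts only through F/A. Of the other 6, 3 were higher and 1 lower in F/A, beside 23.6% and 22.7% of the 15538 genes that also passed without F/A. Of all 7, 2 were higher in L-Pro/LIF (beside 13.7% of all genes). In 2i/LIF 2 were higher and 1 lower (beside 12.5% and 17.9%). Pcsk2, a convertase of neuroendocrine secretory granules, averaged 31.5 ± 3.81 CPM in F/A, 7.78 ± 0.111 in L-Pro/LIF, 0.329 ± 0.0901 in 2i/LIF, 0.704 ± 0.0966 in VitC/LIF and 1.54 ± 0.183 in FBS/LIF (SD, n = 2 each). It rose in F/A by 4.35 ± 0.23 and in L-Pro/LIF by 2.34 ± 0.22, and fell by 2.21 ± 0.28 in 2i/LIF, on the log2 scale over FBS/LIF (SE; edgeR adjusted p = 3.76e-06, 0.000181 and 0.000523). Pcsk2 thus ranked the media F/A, L-Pro/LIF, FBS/LIF, VitC/LIF and 2i/LIF, the order of Apln. Genes outside this list, such as Fgf5 and Wnt3, had the same order, and the share of all genes in it was not counted. Furin, a widely expressed convertase that can cut the Apela precursor, rose in F/A by 1.87 ± 0.60 (edgeR adjusted p = 0.0312) and had a log2 fold change of 1.16 ± 0.58 in L-Pro/LIF (adjusted p = 0.191). Pcsk5, which passed the filter only through F/A, had a log2 fold change of 3.49 ± 0.94 there, given without a test. Pcsk1 rose in F/A by 0.80, in L-Pro/LIF by 1.56 and in 2i/LIF by 1.81, and Pcsk6 fell by 1.17 in F/A and rose by 1.57 in 2i/LIF. Mme (neprilysin), a peptidase that breaks down apelin, rose by 1.12 in F/A, 1.59 in L-Pro/LIF and 1.10 in 2i/LIF.

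The genes of the inhibitory G proteins that couple to the receptor, Gnai1, Gnai2 and Gnai3, were present in every medium. Of the 9 G protein genes, 4 were higher and 1 lower in F/A (beside 24.4% and 22% of all genes), 3 higher in L-Pro/LIF (beside 13.7%) and 2 higher and 5 lower in 2i/LIF (beside 12.5% and 17.9%), over FBS/LIF. Gnai2 averaged 146 ± 29.2 CPM in F/A, 177 ± 7.67 in L-Pro/LIF and 96.9 ± 5.88 in FBS/LIF (SD, n = 2 each), higher by 0.59 ± 0.14 in F/A and 0.87 ± 0.14 in L-Pro/LIF on the log2 scale (SE; edgeR adjusted p = 0.00979 and 0.00289). Gnai1 rose by 0.53 ± 0.11 in L-Pro/LIF (edgeR adjusted p = 0.00801) and fell by 0.87 ± 0.11 in VitC/LIF (0.0178). Gnai2 and Gna13 rose by 1.08 and 1.12 in 2i/LIF. Gnao1, an inhibitory G protein best known from neurons, rose by 2.28 in F/A and had no counts in 2i/LIF. Gnaq rose by 0.91 in F/A, and Gnaz fell by 0.69 in F/A and fell by 2.42 in 2i/LIF.

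Arrestins and receptor kinases, which turn such receptors off, were called higher for 3 of 7 genes and lower for 1 in F/A (beside 24.4% and 22% of all genes), higher for 2 in L-Pro/LIF (beside 13.7%), and higher for 1 and lower for 2 in 2i/LIF (beside 12.5% and 17.9%). Arrb1, the gene of beta-arrestin 1, averaged 60.9 ± 11.6 CPM in F/A, 51.4 ± 2.79 in L-Pro/LIF, 4.53 ± 1.01 in 2i/LIF and 19.4 ± 2.07 in FBS/LIF (SD, n = 2 each). It rose by 1.64 ± 0.18 in F/A and 1.40 ± 0.18 in L-Pro/LIF and fell by 2.10 ± 0.19 in 2i/LIF on the log2 scale (SE; edgeR adjusted p = 0.000195, 0.000829 and 8.77e-05). Grk3, a receptor kinase, rose by 2.36 in F/A, 1.22 in L-Pro/LIF and 0.95 in 2i/LIF. Grk4 rose by 1.80 in F/A, at 12.6 ± 12.0 CPM (SD, n = 2; edgeR adjusted p = 0.0477), and Grk6 fell by 0.41 in F/A and fell by 0.70 in 2i/LIF. Grk2 and Arrb2 did not pass in F/A, L-Pro/LIF, 2i/LIF or VitC/LIF, with log2 fold changes of 0.13 and -0.11 in F/A.

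Of the MEF2 factors and class IIa histone deacetylases through which the receptor acts in endothelium, 5 of 9 genes of this arm were higher in F/A and 1 lower (beside 24.4% and 22% of all genes), 1 higher and 2 lower in L-Pro/LIF (beside 13.7% and 10.3%), and 2 higher and 4 lower in 2i/LIF (beside 12.5% and 17.9%). Hdac7 rose by 2.60 ± 0.60, Mef2d by 2.13 ± 0.35 and Mef2a by 1.95 ± 0.30 in F/A over FBS/LIF (log2 ± SE; edgeR adjusted p = 0.00802, 0.00167 and 0.00113). Hdac7 also rose by 1.98 in L-Pro/LIF and 1.88 in 2i/LIF, and Hdac4 fell by 0.54 in L-Pro/LIF. In 2i/LIF, Mef2b fell by 5.43, Mef2c fell by 3.58 and Hdac9 fell by 3.40. Klf2, which apelin signalling raises in endothelium through MEF2 and which is also a naive pluripotency factor, fell by 5.90 ± 0.16 in F/A and fell by 2.94 ± 0.13 in L-Pro/LIF (edgeR adjusted p = 1.3e-07 and 5.32e-06). It averaged 0.957 ± 0.0809 CPM in F/A, 7.34 ± 0.128 in L-Pro/LIF and 56.4 ± 3.25 in FBS/LIF (SD, n = 2 each). Among 9 receptors related to Aplnr by sequence or ligand class, 3 were tested: Cxcr4 rose by 2.31 in F/A, Agtr1a rose by 2.00 in L-Pro/LIF, and Ackr3 fell by 1.79 in F/A and fell by 1.73 in L-Pro/LIF while it rose by 1.37 in 2i/LIF.

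For the RNA role described for Apela, neither Hnrnpl nor Trp53 passed the test in any of the 5 comparisons; Hnrnpl averaged 408 ± 0.881 CPM in F/A, 398 ± 86.0 in L-Pro/LIF and 392 ± 46.5 in FBS/LIF (SD, n = 2 each). Of 12 p53 target genes, 8 were higher and 1 lower in F/A (beside 24.4% and 22% of all genes), 6 higher and 1 lower in L-Pro/LIF (beside 13.7% and 10.3%), 1 higher and 3 lower in 2i/LIF (beside 12.5% and 17.9%), and none called in VitC/LIF, over FBS/LIF. In L-Pro/LIF over VitC/LIF 7 were higher, beside 16.8% of all genes, and 1 lower. Cdkn1a, a cell cycle inhibitor, rose by 3.17 in F/A and 1.65 in 2i/LIF, and also in L-Pro/LIF (edgeR adjusted p = 0.0257), on the log2 scale. Pmaip1, which promotes apoptosis, rose by 1.09 in F/A and 1.26 in L-Pro/LIF and fell by 0.38 in 2i/LIF. Zmat3 rose in F/A, at 161 ± 71.3 CPM in F/A and 56.8 ± 23.5 CPM in FBS/LIF (SD, n = 2 each; edgeR adjusted p = 0.00949). Phlda3 rose by 1.03 in F/A and 1.10 in L-Pro/LIF, Perp rose by 0.82 in L-Pro/LIF and fell by 2.45 in 2i/LIF, and Eda2r fell by 0.80 in 2i/LIF. Bax, the gene lower in F/A, fell by 0.84.

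Genes whose log2 CPM ran most like a member over the 10 libraries were listed as a description. For Aplnr they were Cer1 (Pearson r = 0.996), the cadherin Cdh11 (0.992), the transcription factors Tcf12 (0.981) and Arid3b (0.979), and the acetyltransferase gene Naa60 (0.977); the 10 points share the 2 F/A libraries, where Aplnr is high. Over the 8 libraries without F/A they were Mib1, Stx7 and Sc5d, where the Aplnr values are 9 fragments and zeros. For Apln they were Dip2c (0.991), Rbmx and Adra2b (0.986 each), and Endov and Fam149b (0.985 each), and without F/A Pip4p2 (0.998), Plod2 (0.994), a collagen lysyl hydroxylase, and Mark1 (0.994). For Apela they were Asb13 (0.938), Itm2a (0.934), Syndig1 (0.923), Srprb (0.921) and Ccne2 (0.92), and without F/A Fam149b (0.969), Slc18a2 (0.967) and Nap1l2 (0.963). Between members, Aplnr and Apln had r = 0.969 over 10 libraries and 0.886 over the 8 without F/A, and Apela and Apln 0.633 and 0.864. The values with Aplnr rest on the same points, the 2 F/A libraries it was chosen on, or 9 fragments and zeros. They are a description only.

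The promoters of the ligand genes are shown because the ligands differed between media in size of change. Each is the 250 bases before the gene start from RefSeq (GRCm38.p6, minus strand), Apln at chrX:48034854-48035103 and Apela at chr8:65037337-65037586, with matches to the searched motifs in capitals.
Apln promoter: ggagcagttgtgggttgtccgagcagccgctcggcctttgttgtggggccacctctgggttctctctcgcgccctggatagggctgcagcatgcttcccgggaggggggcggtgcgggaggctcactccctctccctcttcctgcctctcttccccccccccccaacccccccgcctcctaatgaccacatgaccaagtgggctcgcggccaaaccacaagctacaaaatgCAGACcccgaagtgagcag
Apela promoter: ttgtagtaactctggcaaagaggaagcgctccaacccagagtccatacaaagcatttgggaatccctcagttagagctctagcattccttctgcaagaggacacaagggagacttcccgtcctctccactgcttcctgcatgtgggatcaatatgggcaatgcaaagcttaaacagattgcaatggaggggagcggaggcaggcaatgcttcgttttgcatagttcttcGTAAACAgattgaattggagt
Searched on both strands were CAGAC for SMAD factors, GTAAACA for forkhead factors, ATGCAAAT for POU factors of the octamer type, GGTGTGA for T-box factors, ACGTG for hypoxia-inducible factors, AGATAA for zinc finger factors of the Gata family and TATAAA for the core promoter box. The Apln window held 1 match, CAGAC, which 42.2% of the 32851 promoters of the same length hold. The Apela window held 1 match, GTAAACA, which 3.17% of them hold. The other motifs, present in 1.6% to 16.6% of promoters, had no match in either window beyond these.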

How the data were processed

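RNA was extracted with RNeasy in experiment B and Trizol in experiment A, per the labels' protocols. The authors deposited raw counts of experiment A by Ensembl gene; the submitters' processing notes name CASAVA, TopHat2 2.0.13, HTSeq 0.6.1p1 and mm9 (NCBIM37), and for experiment B also Bowtie and DESeq. Per the file headers, the deposited experiment B files hold the natural log of FPKM, unique hit counts and effective lengths. From these, estimated counts were rebuilt (FPKM times effective length and mapped fragments) and rounded. For Aplnr, Apln and Apela, unique hits summed to 839, 2976 and 84, against 837, 2961 and 85 estimated. The strand setting is not stated. A deposited table of the authors' normalized counts (a score here) was quoted, and 1 of its columns, which matches no single sample, was not used.

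Genes were kept by filterByExpr, scaled by TMM and tested, 2-sided, with edgeR 4.0.16 (R 4.3.3) in 1 model of all 10 experiment B libraries with a term per medium, on 5 residual degrees of freedom; SE was taken as the log2 fold change divided by the root of F. Experiment A was never pooled with it. Symbols for 32919 identifiers came from GENCODE vM21, a later build. The members and gene lists were chosen with earlier results of these data known. Named genes were drawn, per list and comparison, from up to 4 called by size of change plus up to 2 more by expression (Fgf8 in F/A and Bax were named after their values were seen), and for each member the 5 and 3 genes of highest r (with and without F/A) at 4 CPM or more in a medium. Alternatives used DESeq2 1.42.0, limma 3.58.1, unique hits, no filter, fewer libraries and a replicate block. The fit was tested on simulated data.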

Additional observations from a re-analysis of the deposited data

How the results depend on the processing

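Apln kept its direction under every alternative run, and its calls in L-Pro/LIF over FBS/LIF and over VitC/LIF held in all. In 2i/LIF over FBS/LIF it was -0.35 with limma on log2(FPKM + 1) (adjusted p = 0.105), and in VitC/LIF over FBS/LIF it was -1.30 without a filter on low counts (edgeR adjusted p = 0.0425; range over its alternatives 0.0425 to 0.525). Aplnr in L-Pro/LIF was 0.60 and 0.0725 with limma at pseudocounts of 0.1 and 1 over FBS/LIF, and 0.60 and 0.0725 over VitC/LIF, by construction of a pseudocount above its FPKM; leaving out 1 library gave 4.61 to 5.11 over FBS/LIF and 4.61 to 5.11 over VitC/LIF. These fitted values, against groups at 0, depend on the prior count and are not read as a test, since Aplnr passed the filter only through F/A. Apela in L-Pro/LIF over VitC/LIF was 2.74 to 3.72 with 1 library left out (edgeR adjusted p 0.0398 to 0.0896). In F/A over FBS/LIF, without a test, Aplnr had a fitted log2 value of 12.20, against 11.80 with DESeq2 and 6.69 and 3.49 with limma at pseudocounts of 0.1 and 1. Apela was 0.20 and Apln 4.62 with limma at 1, and Apela ranged from 0.0284 to 1.26 with 1 library left out. Counts of called pathway genes ranged with 1 library left out from 19 to 28 in F/A, 12 to 16 in L-Pro/LIF and 16 to 20 in 2i/LIF; in VitC/LIF the count of 1 became 4 with DESeq2, 2 with unique hits, 3 in the fit without F/A (added after seeing the data) and 0 with any library left out. Of the 49 pathway genes that also pass the filter without F/A (a restriction added after seeing the data), 25 were higher and 6 lower in F/A. With unique hits as counts, VitC/LIF over FBS/LIF called 243 genes in all against 108. The cause of these moves was not tested.

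Replicate numbers were not used to pair libraries in the main fit. Deviations of same-numbered libraries correlated at 0.098 to 0.518 over 10 pairs of media, all positive. That 10 of 10 libraries correlated best with their own number restates these signs. Effective lengths of replicate 2 libraries were longer than in FBS/LIF replicate 1 by 39.4 to 54.1 bases at the median. Whether the numbers mark a batch was not tested. With the replicate block, 3730, 4747, 86 and 7300 genes were called in L-Pro/LIF, 2i/LIF, VitC/LIF and F/A over FBS/LIF, against 3853, 4867, 108 and 7440 without it, Apln in L-Pro/LIF over FBS/LIF was 1.59, and no call of Apln or Apela changed. No value was had for Aplnr where both media were at 0, for Aplnr in the fits of 2 media or without F/A, for Apela in the fits of 2 media except in L-Pro/LIF (under the filter), and for Apela in VitC/LIF over FBS/LIF with DESeq2, which gave no adjusted p. Depth limits Apela, at 1 to 19 fragments per library, and Aplnr outside F/A.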
